A study of Mus musculus with 20 samples.

Results

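The genes described here are 10 members of the NF-kB system: the subunits Nfkb1, Nfkb2, Rel, Rela and Relb, the IkB inhibitors Nfkbia, Nfkbib and Nfkbie, the atypical IkB protein Nfkbiz, and Tnfaip3, a ubiquitin-editing inhibitor of the pathway. They were chosen by name, with earlier results of these data known, and each is represented by its RefSeq transcript with the highest total count. They are 10 of the 24342 gene symbols in the count table. All 10 passed the filter on low counts, which left 12013 genes for testing. Macrophages were grown from bone marrow of C57BL/6 mice over 7 to 8 days with 15% L929-conditioned medium, a source of the growth factor M-CSF. The 6 groups were SGC0946+LPS, DMSO+LPS, SGC0946+GW3965, DMSO+GW3965, SGC0946 and DMSO. SGC0946, an inhibitor of the histone H3K79 methyltransferase DOT1L, was given at 1 µM throughout differentiation, with its solvent DMSO as the control. LPS, the bacterial ligand of the receptor TLR4, was given at 10 ng/mL for 3 h. GW3965, an agonist of the nuclear receptor LXR, was given at 2 µM for 17 h. The stimulated groups had 3 libraries each and the unstimulated groups 4 each, from 4 mice numbered 1 to 4 in the deposited metadata. Replicate numbers below are these mouse numbers. No genotype differed between groups, and all cells had passed the whole differentiation with the inhibitor or with DMSO, so that growth with SGC0946 and its presence at the time of stimulation cannot be told apart.

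NF-kB transcription factors are dimers of the 5 subunits. In resting cells IkB proteins hold most dimers in the cytoplasm. Signals from TLR4 activate the IKK kinases, which mark IkB proteins for destruction, and the freed dimers enter the nucleus and switch on inflammatory genes. Among the genes they switch on are their own inhibitors Nfkbia and Tnfaip3, a textbook example of negative feedback, as well as Nfkb1, Nfkb2, Rel and Relb. Nfkbiz encodes IkB-zeta, a nuclear cofactor that is made after TLR stimulation and is needed in macrophages for a set of late genes such as Il6.

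Promoter sequences are shown for members with a strong change after LPS and for Rela, which had the smallest one, so that the sequence next to the start can be read beside the values. RefSeq promoter windows on GRCm38.p6 run from 250 bases before to 50 bases after a gene start and were matched by symbol for 7 of the 10 members. The other members are Nfkb1, Relb and Nfkbiz. Both strands were searched for the kB consensus, a motif of 10 bases. Windows with a match belonged to 5.14% of 27025 genes, and to 5 of the 7 members, namely Nfkb2, Rel, Nfkbia, Nfkbie and Tnfaip3. The windows of Rela and Nfkbib held none. The Nfkbib window is not printed, and Nfkbib rose after LPS by a log2 fold change of 2.89 with SGC0946 and 2.92 with DMSO. Whether a match goes with the size of the change was not tested. A match describes the letters and does not show that the site is bound. Sequences are given in the direction of transcription, in lower case, with matches on either strand in capitals.
Nfkb2, chr19:46304487-46304786, plus strand, the first by position of its 3 RefSeq windows: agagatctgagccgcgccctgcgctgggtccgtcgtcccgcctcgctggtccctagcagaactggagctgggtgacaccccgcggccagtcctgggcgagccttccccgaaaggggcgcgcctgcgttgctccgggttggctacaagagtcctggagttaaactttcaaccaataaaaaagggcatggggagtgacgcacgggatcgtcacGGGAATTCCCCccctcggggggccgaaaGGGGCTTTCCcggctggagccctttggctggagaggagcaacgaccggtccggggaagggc
Nfkbia, chr12:55492598-55492897, minus strand: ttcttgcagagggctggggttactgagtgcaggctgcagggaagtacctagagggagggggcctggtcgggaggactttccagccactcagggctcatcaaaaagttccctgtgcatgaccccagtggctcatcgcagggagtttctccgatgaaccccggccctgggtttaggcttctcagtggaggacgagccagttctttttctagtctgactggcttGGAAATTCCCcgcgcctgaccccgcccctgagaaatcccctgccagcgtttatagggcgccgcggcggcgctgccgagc
Nfkbie, chr17:45555450-45555749, plus strand: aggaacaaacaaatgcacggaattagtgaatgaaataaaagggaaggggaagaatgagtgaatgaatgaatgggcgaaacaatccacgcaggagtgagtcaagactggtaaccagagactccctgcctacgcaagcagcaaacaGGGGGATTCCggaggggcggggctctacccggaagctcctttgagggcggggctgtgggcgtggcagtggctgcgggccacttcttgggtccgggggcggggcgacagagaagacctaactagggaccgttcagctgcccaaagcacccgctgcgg
Tnfaip3, chr10:19015361-19015660, minus strand, the start of the counted transcript: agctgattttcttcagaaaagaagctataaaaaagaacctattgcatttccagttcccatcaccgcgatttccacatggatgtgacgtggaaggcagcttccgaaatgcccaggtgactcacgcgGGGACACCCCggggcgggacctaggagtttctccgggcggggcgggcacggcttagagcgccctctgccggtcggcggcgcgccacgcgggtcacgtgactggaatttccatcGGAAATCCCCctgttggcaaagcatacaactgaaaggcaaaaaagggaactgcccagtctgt
Rela, chr19:5637291-5637590, plus strand: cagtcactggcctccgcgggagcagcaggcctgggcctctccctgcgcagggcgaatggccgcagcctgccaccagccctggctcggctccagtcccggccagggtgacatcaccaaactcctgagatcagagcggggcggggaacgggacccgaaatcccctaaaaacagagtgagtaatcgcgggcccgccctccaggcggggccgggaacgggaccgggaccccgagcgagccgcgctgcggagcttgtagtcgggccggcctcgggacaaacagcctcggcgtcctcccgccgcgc

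In the Nfkbia window the match GGAAATTCCC began 29 bases before the start. Nfkbie held GGGGGATTCC at 106 bases before its start. Tnfaip3 held GGGACACCCC at 125 bases and GGAAATCCCC at 12 bases before its start. The Nfkb2 window held GGGAATTCCC at 39 bases and GGGGCTTTCC at 11 bases before the start, and its other windows also held matches. The RefSeq gene record of Nfkb2 begins farther upstream, at position 46300994, which no window covers. That of Rela begins at position 5637442, upstream of the start used, 5637541, but inside its window. Rel held GGGAAATCCC at 92 bases before its start. The other Tnfaip3 window, which lies inside the gene, had no match. The 2 Tnfaip3 transcripts had near-equal counts and cannot be told apart, so the counts cannot be tied to either window.

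Libraries held 13.94 to 23.11 M counts over all transcripts and 8.17 to 13.33 M in the transcripts used, and counting error weighs most on the lowest members, Nfkbie and Nfkbiz in cells without LPS. All 8 macrophage markers passed the filter. Their summed level was 12058 to 20690.4 CPM (read counts scaled to library size and TMM factor) over the 20 libraries. Of 4 dendritic cell markers 2 passed, and the sum of the 4 reached 3.59 CPM in SGC0946+LPS. No B cell, T and NK cell or stromal marker passed. Their sums, of 4 markers each, reached 0.415 CPM (B cell, DMSO+LPS), 0.463 CPM (T and NK cell, DMSO) and 1.09 CPM (stromal, DMSO+LPS). The B cell marker Pax5 and the 3 erythroid markers were at 0 in every library. The summed level of 8 markers of neutrophils and their precursors, 5 of which passed the filter, lay lower with SGC0946 than with DMSO in each condition. It was 15.4 to 20.8 CPM in SGC0946+LPS against 55.1 to 65.4 CPM in DMSO+LPS, 2.56 to 4.98 CPM in SGC0946+GW3965 against 27.6 to 40.8 CPM in DMSO+GW3965, and 2.08 to 7.75 CPM in SGC0946 against 30.8 to 41.4 CPM in DMSO. Within the SGC0946 arm, mice 2 and 4 stood apart. The chi-square per gene between libraries was 7.82 to 10.9 between either of these mice and mouse 1 or 3 in unstimulated cells, 5.1 between mice 2 and 4, and 3.09 to 6.07 among the DMSO libraries. The word reanalyzed stands in 6 titles, those of all DMSO+GW3965 libraries and of DMSO libraries 1 to 3. In the GW3965 condition it thus cannot be told apart from the absence of the inhibitor. In SGC0946 against DMSO and in DMSO+LPS against DMSO only DMSO libraries carry it. These comparisons, and the difference of the LPS responses, can therefore not be fully told apart from it. RNA came from whole cultures, in which fewer cells of a type and less RNA per cell cannot be told apart.

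**Figure D1:**
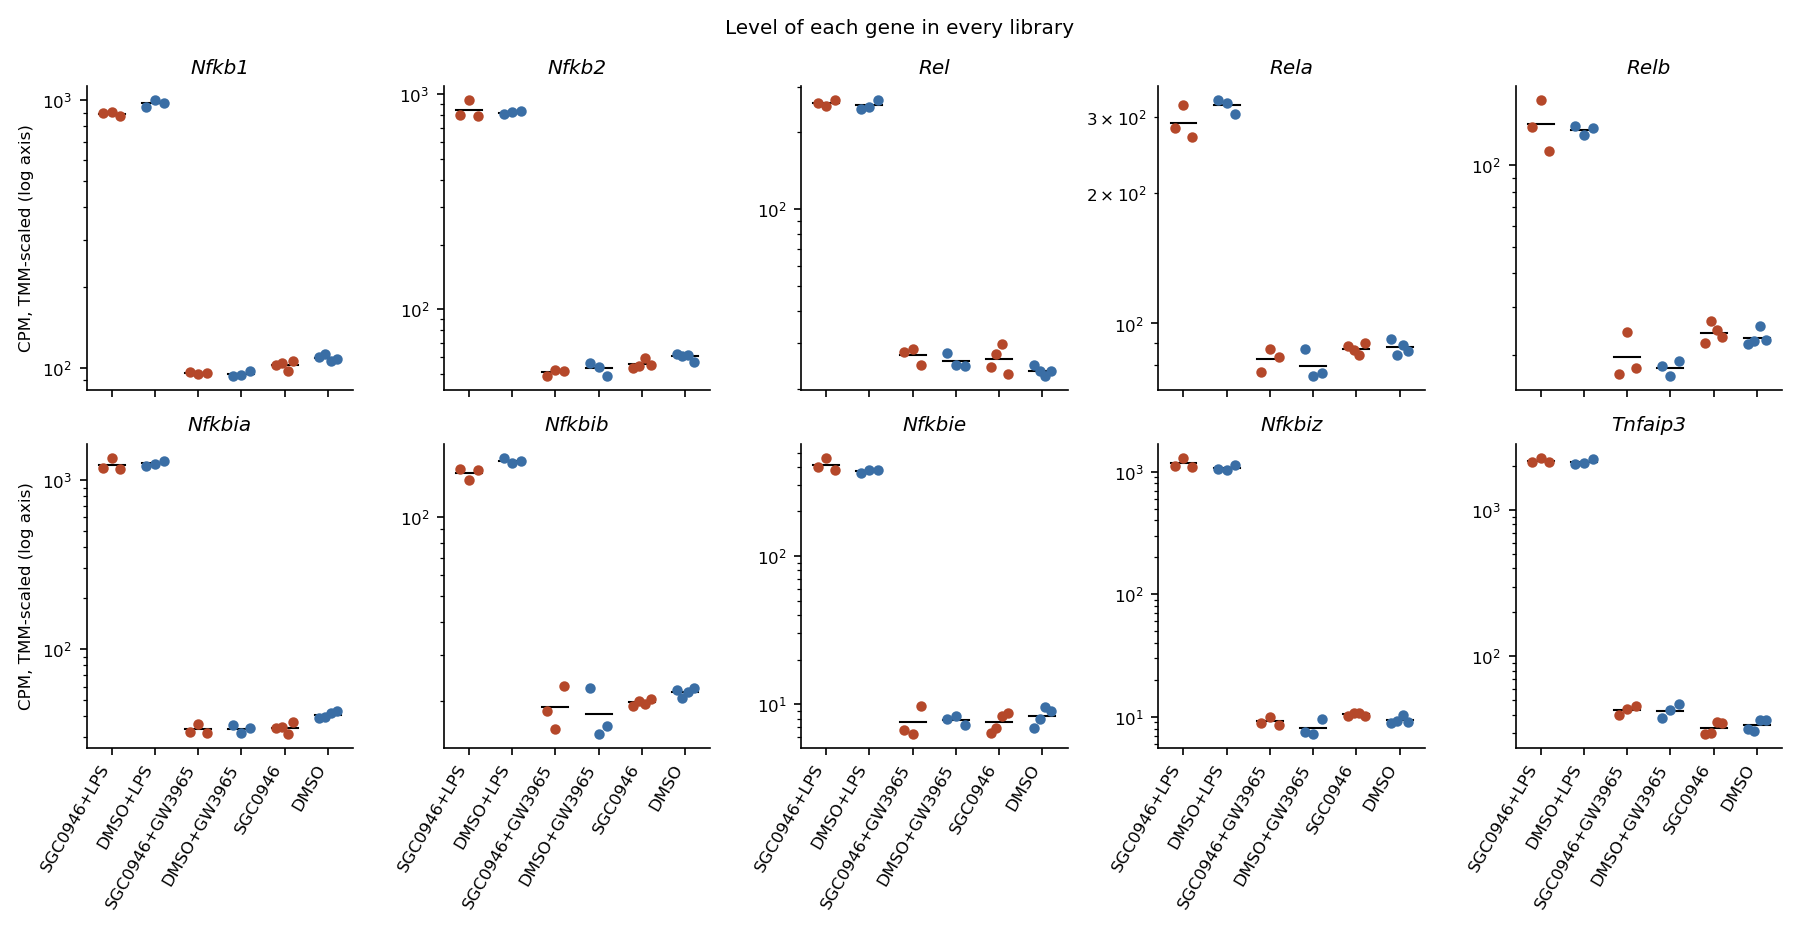
Level of each of the 10 genes in each of the 20 libraries, in CPM on a log axis whose range differs between panels. Points are libraries, red with SGC0946 and blue with DMSO, and black lines are group means. In every panel the LPS libraries lie above all others, from 113 to 174 CPM for Relb in SGC0946+LPS to 2141 to 2289.6 CPM for Tnfaip3 in SGC0946+LPS.

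LPS raised all 10 genes in both arms, with no overlap between stimulated and unstimulated libraries for any of them. The inhibitors Nfkbia, Nfkbie and Tnfaip3 and the nuclear cofactor Nfkbiz rose more than the subunits. Log2 fold changes were 4.94 to 6.83 for these genes over both arms, against 1.73 to 3.93 for the 5 subunits. The inhibitor Nfkbib, at 2.89 and 2.92, lay among the subunits. Of all genes tested, 35.8% were called higher in the SGC0946 arm and 35.4% in the DMSO arm (edgeR quasi-likelihood test, Benjamini-Hochberg adjusted p under 0.05), and the groups lay apart in this direction for 33.9% and 36% of genes. The median log2 fold change of the 10 genes was 3.63 in the SGC0946 arm and 3.60 in the DMSO arm, against -0.07 over all genes in both arms.

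The level of Nfkb1, which encodes p105 and its processed product p50, was 895, 904 and 873 CPM in SGC0946+LPS against 102, 104, 96.8 and 106 CPM in SGC0946. In the other arm it was 948, 1005 and 976 CPM in DMSO+LPS against 109.6, 113, 106 and 108 CPM in DMSO. The stimulated libraries were thus far above the unstimulated ones, and the log2 fold change was 3.12 ± 0.05 with SGC0946 and 3.16 ± 0.05 with DMSO (± 1 SE, as in all fold changes below). Nfkb2, the precursor of p52 in the non-canonical branch, had 803, 944 and 791 CPM in SGC0946+LPS against 53.3, 54.6, 59.1 and 55 CPM in SGC0946, and 811, 826 and 834 CPM in DMSO+LPS against 62, 60.9, 61.6 and 57 CPM in DMSO. It had the largest change of the subunits, 3.93 ± 0.07 with SGC0946 and 3.77 ± 0.07 with DMSO. Part of the exon length of Nfkb2, 18.1%, overlaps Psd and AC114539.1 on the other strand, and whether counting used the strand is not given in the sources used here, so its counts are uncertain to that extent. Psd itself was at 36.4 to 40.0 CPM in SGC0946+LPS against 5.54 to 6.76 CPM in SGC0946, and at 33.3 to 34.6 CPM in DMSO+LPS against 4.71 to 7.39 CPM in DMSO.

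Rel encodes c-Rel, a transactivating subunit prominent in lymphoid and myeloid cells. It had 259.5, 252 and 267 CPM in SGC0946+LPS against 24.3, 27.2, 29.7 and 22.7 CPM in SGC0946, and 246, 251 and 266 CPM in DMSO+LPS against 24.6, 23.5, 22.4 and 23.5 CPM in DMSO. Its change was 3.32 ± 0.07 with SGC0946 and 3.44 ± 0.07 with DMSO, close to that of Nfkb1. Relb, the partner of p52, had 138, 174 and 113 CPM in SGC0946+LPS against 22.2, 26.7, 24.7 and 23.4 CPM in SGC0946, and 139, 129.6 and 137 CPM in DMSO+LPS against 22.1, 22.5, 25.6 and 22.8 CPM in DMSO. The 3 SGC0946+LPS libraries of Relb spread over 113 to 174 CPM, wider than the 129.6 to 139 CPM of DMSO+LPS, and the change was 2.55 ± 0.12 with SGC0946 and 2.54 ± 0.12 with DMSO. Rela encodes p65, the main transactivating subunit of the canonical dimer. Its levels were 282, 319.6 and 269.5 CPM in SGC0946+LPS against 88.6, 86.7, 84.8 and 90.0 CPM in SGC0946, and 328, 323 and 304 CPM in DMSO+LPS against 92.1, 84.5, 89.2 and 86.4 CPM in DMSO. Rela thus changed least of the 10 genes, by 1.73 ± 0.06 with SGC0946 and 1.86 ± 0.06 with DMSO. The adjusted p of the 5 subunits was at most 1.19e-14 in either arm (edgeR).

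Among the inhibitors, Nfkbia encodes IkB-alpha, the best known inhibitor of p65-p50 dimers. Its level was 1177, 1352 and 1164 CPM in SGC0946+LPS against 34.2, 34.7, 31.5 and 36.9 CPM in SGC0946. With DMSO it was 1217, 1246 and 1290.1 CPM after LPS against 39.2, 39.5, 41.6 and 42.8 CPM unstimulated. Levels after LPS overlapped between the arms, and the log2 fold change was 5.16 ± 0.07 with SGC0946 and 4.94 ± 0.07 with DMSO. Nfkbie, which encodes IkB-epsilon, had 398, 461 and 381 CPM in SGC0946+LPS against 6.43, 6.93, 8.3 and 8.77 CPM in SGC0946, and 365, 384 and 383 CPM in DMSO+LPS against 6.88, 7.89, 9.55 and 9 CPM in DMSO. It started from one of the lowest levels of the 10 genes and changed by 5.76 ± 0.11 with SGC0946 and 5.50 ± 0.11 with DMSO. Nfkbib, which encodes IkB-beta, had 152, 138 and 151 CPM in SGC0946+LPS against 19.2, 20.0, 19.5 and 20.4 CPM in SGC0946, and 168, 160.1 and 163 CPM in DMSO+LPS against 22.1, 20.5, 21.6 and 22.5 CPM in DMSO. The change of this IkB was 2.89 ± 0.10 with SGC0946 and 2.92 ± 0.10 with DMSO, the smallest of the 3 classical inhibitors. Nfkbib shares 16.4% of its exon length with Sirt2 and Ccer2 on the other strand, so its counts are uncertain too; Sirt2 lay between 163 and 206 CPM in all groups.

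Nfkbiz, the nuclear IkB, had 1110.4, 1296 and 1099 CPM in SGC0946+LPS against 10.2, 10.7, 10.8 and 10.2 CPM in SGC0946, and 1046, 1034 and 1133 CPM in DMSO+LPS against 8.98, 9.22, 10.3 and 9 CPM in DMSO. This was the largest change of the 10 genes, 6.80 ± 0.09 (111-fold) with SGC0946 and 6.83 ± 0.09 (114-fold) with DMSO. Tnfaip3 encodes A20, which trims ubiquitin chains on signalling proteins upstream of IKK. It had 2149, 2289.6 and 2141 CPM in SGC0946+LPS against 29.5, 30, 35.5 and 34.8 CPM in SGC0946, and 2087, 2099 and 2238 CPM in DMSO+LPS against 31.7, 30.8, 36.9 and 36.8 CPM in DMSO. It reached the highest CPM of the 10 genes and changed by 6.08 ± 0.10 with SGC0946 and 5.98 ± 0.09 with DMSO. The adjusted p of Nfkbia, Nfkbib, Nfkbie, Nfkbiz and Tnfaip3 was at most 7.22e-17 in either arm (edgeR).

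The size of these changes depends on the scaling, because TMM factors ran from 0.686 to 0.716 with LPS, against 1.14 to 1.19 without it. With library totals alone the median over all genes was -0.81 with SGC0946 and -0.80 with DMSO, the share of called genes that were higher was 18.5% and 18.6% (47.9% and 47.8% with TMM), and the median of the 10 genes was 2.89 and 2.87. All 10 genes still rose in both arms, Rela by 0.99 with SGC0946 and 1.13 with DMSO.

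**Figure D2:**
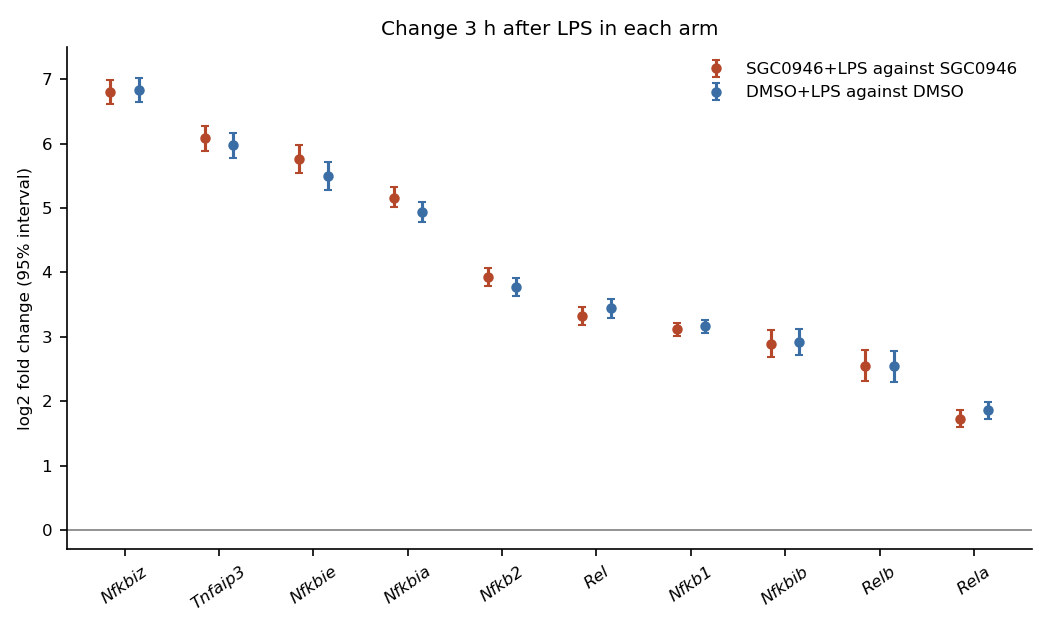
Log2 fold change 3 h after LPS for each gene, red for SGC0946+LPS against SGC0946 and blue for DMSO+LPS against DMSO. Points are edgeR estimates and bars are 95% intervals. Nfkbiz, Tnfaip3, Nfkbie and Nfkbia stand highest, at 4.94 to 6.83, and Rela lowest, at 1.73 and 1.86, and the 2 arms lie side by side for every gene.

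Whether growth with the DOT1L inhibitor altered the LPS response was tested as the difference between the responses of the arms. None of the 10 genes was called, and 1 of all 12013 genes was (0.00832%). For 1 of the 10 the unadjusted p was under 0.05 and DESeq2 called none. Differences, SGC0946 arm minus DMSO arm, ran from -0.12 for Rela to 0.26 for Nfkbie, and the 95% intervals of all 10 genes lay between -0.33 and 0.59. The largest relative to its error was that of Nfkbia, 0.23 ± 0.09 (95% interval 0.03 to 0.42, edgeR adjusted p = 0.614). The other 9 intervals included 0. Each interval is narrow beside the responses, the lowest of which was 1.73.

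Levels of different genes were set side by side within a library on the deposited RPKM scale, reads per length of transcript and library total. In unstimulated cells Rela was highest, at 32.7 ± 1.88 RPKM in SGC0946 and 33.1 ± 1.6 RPKM in DMSO (SD, n = 4 each). It was followed by Nfkb1, at 25.2 ± 1.56 RPKM in SGC0946 and 27 ± 1.09 RPKM in DMSO, and Nfkbia, at 22 ± 1.91 RPKM in SGC0946 and 26.3 ± 0.713 RPKM in DMSO, whose ranges overlapped those of Nfkb1 in both groups. Below them came Nfkb2, then Relb and Rel, whose ranges overlapped in SGC0946 and lay apart in DMSO, then Tnfaip3, and last Nfkbie and Nfkbiz. Nfkbiz was at 2.74 ± 0.0219 RPKM in SGC0946 and 2.47 ± 0.151 RPKM in DMSO. The place of Nfkbib in this order depends on its transcript, since its 2 transcripts had near-equal counts but differ in RPKM. The transcript used here was at 14.6 RPKM in SGC0946 and 16.1 RPKM in DMSO, above Relb, and the other at 9.33 RPKM in SGC0946 and 10.2 RPKM in DMSO, below the 11.1 and 10.8 RPKM of Relb.

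After LPS the order differed. Nfkbia led, at 463 ± 40.7 RPKM in SGC0946+LPS and 496 ± 8.92 RPKM in DMSO+LPS, followed by Tnfaip3, at 294 ± 12.2 RPKM in SGC0946+LPS and 302 ± 7.26 RPKM in DMSO+LPS (SD, n = 3 each). Nfkbiz, one of the lowest genes before stimulation, stood next, at 179.8 ± 17.4 RPKM in SGC0946+LPS and 174 ± 6.11 RPKM in DMSO+LPS. Its range overlapped that of Nfkb2 in SGC0946+LPS and not in DMSO+LPS. Nfkb2, Nfkb1 and Nfkbie followed with ranges apart, then Rela and Rel, whose ranges overlapped in SGC0946+LPS and lay apart in DMSO+LPS, then Relb. Rela, the highest gene before stimulation, was at 63.6 ± 5.98 RPKM in SGC0946+LPS and 73.6 ± 3.91 RPKM in DMSO+LPS. Nfkbib was at 63.9 RPKM in SGC0946+LPS and 75.2 RPKM in DMSO+LPS by the transcript used, near Rela, and at 40 RPKM in SGC0946+LPS and 47.3 RPKM in DMSO+LPS by the other, below Rel. In the GW3965 groups the order matched the unstimulated one from Rela down to Nfkb2, and then, Nfkbib aside, came Rel, Tnfaip3 and Relb, where the ranges of neighbours overlapped.

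The make-up of the subunit pool changed with LPS accordingly. Rela was 14.2 ± 0.325% of the summed RPKM of the 5 subunits in SGC0946+LPS against 33.8 ± 1.18% in SGC0946, and 15.2 ± 0.684% in DMSO+LPS against 33.3 ± 0.844% in DMSO. Nfkb2 was 35.1 ± 1.24% in SGC0946+LPS against 18.2 ± 0.744% in SGC0946, and 33.3 ± 0.236% in DMSO+LPS against 19.3 ± 0.454% in DMSO. The share of Nfkb2 thus grew and that of Rela shrank, with no overlap between stimulated and unstimulated libraries. Nfkb1 held 28.8 ± 1.45% in SGC0946+LPS against 26 ± 1.09% in SGC0946 and 30.7 ± 0.629% in DMSO+LPS against 27.2 ± 0.922% in DMSO. Among the 3 classical inhibitors, Nfkbib was 10.3 ± 1.24% in SGC0946+LPS against 36.9 ± 0.96% in SGC0946, and 11.3 ± 0.494% in DMSO+LPS against 35.2 ± 1.17% in DMSO. With its other transcript, an alternative chosen after seeing the data, the share was 6.68 ± 0.87% in SGC0946+LPS against 27.1 ± 0.818% in SGC0946, and 7.39 ± 0.323% in DMSO+LPS against 25.6 ± 0.562% in DMSO. The size of the share thus depends on the transcript, and it was lower with LPS by either. The summed RPKM of the 3 IkB genes over that of the 5 subunits was 1.4 ± 0.0153 in SGC0946+LPS against 0.411 ± 0.019 in SGC0946, and 1.38 ± 0.0247 in DMSO+LPS against 0.462 ± 0.0253 in DMSO. It was 0.429 ± 0.035 in SGC0946+GW3965 and 0.43 ± 0.0278 in DMSO+GW3965. With the other Nfkbib transcript the ratio was 1.35 in SGC0946+LPS against 0.356 in SGC0946, and 1.32 in DMSO+LPS against 0.403 in DMSO. These shares and ratios are of mRNA and are a description, with no test.

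**Figure D3:**
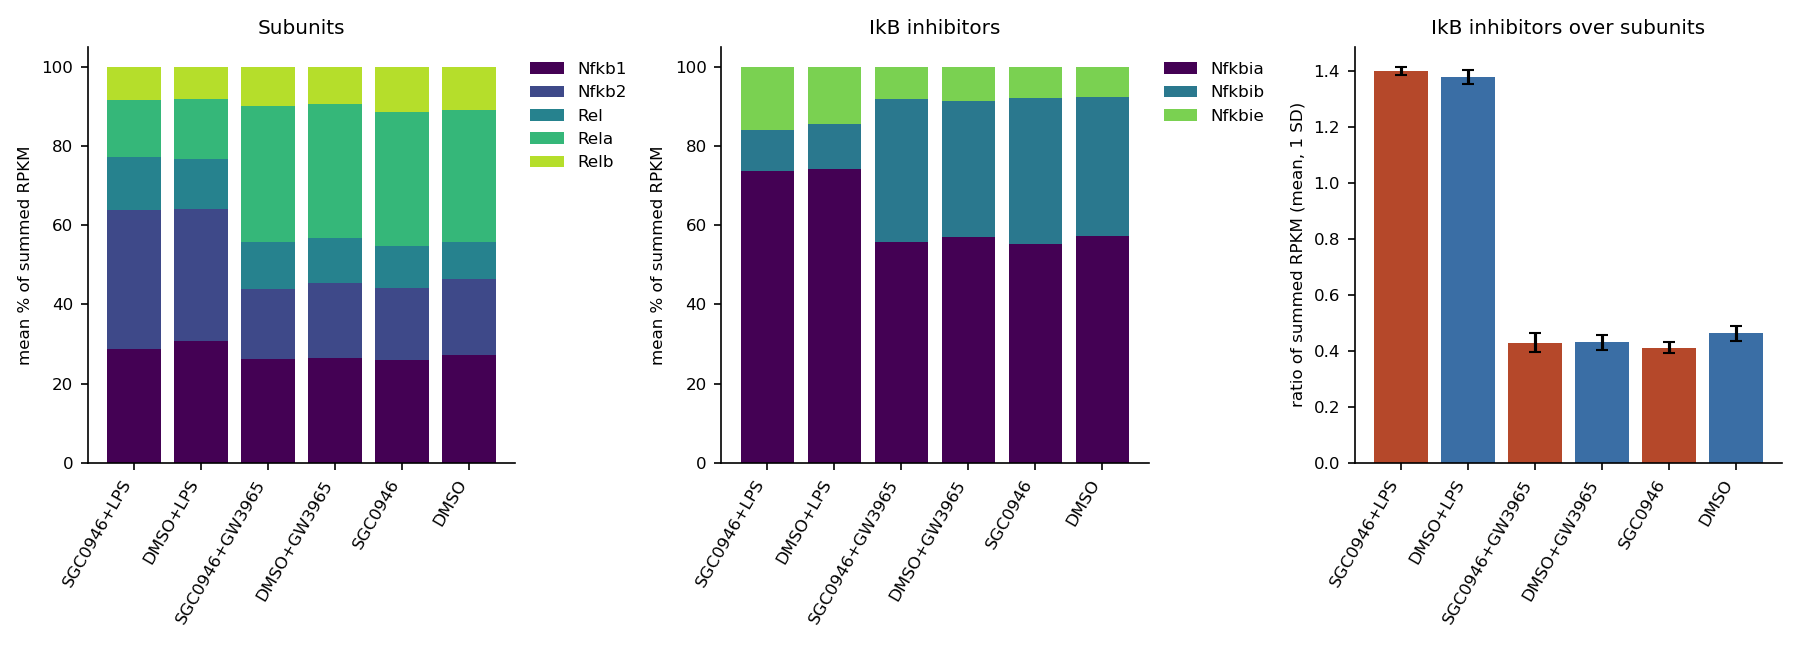
Mean percent of summed RPKM held by each of the 5 subunits (left) and by each of the 3 classical IkB genes (middle), and the ratio of the sums of the IkB genes and the subunits (right, bars with 1 SD), in the 6 groups. Rela holds 14.2% and 15.2% of the subunit sum in the LPS groups against 33.3% to 34.2% in the others, and the ratio is 1.4 and 1.38 with LPS and 0.411 to 0.462 without. Nfkbib is drawn by the transcript used in the tests, and its other transcript gives a smaller share, 6.68% to 27.1%.

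The effect of the DOT1L inhibitor itself on these genes was small. In unstimulated cells 1 of the 10 genes was called, Nfkbia, and it was lower with SGC0946; 8.72% of all genes tested were called in either direction and 4.18% lower, so that the count is near the background. The Nfkbia levels given above, 31.5 to 36.9 CPM in SGC0946 against 39.2 to 42.8 CPM in DMSO, did not overlap, and its log2 fold change was -0.25 ± 0.07 (95% interval -0.39 to -0.11, edgeR adjusted p = 0.0213). Since the groups lay apart, it had to be lower in 4 of 4 mice. The differences were -0.19, -0.19, -0.40 and -0.22 in log2 CPM for mice 1 to 4. The adjusted p was 0.0663 without SGC0946 replicate 3, 0.0558 without DMSO replicate 3, 0.0767 without DMSO replicate 4 and 0.0685 without mice 2 and 4 (-0.29) (all edgeR). When only libraries without the word reanalyzed were kept, the log2 fold change was -0.32. That fit has DMSO replicate 4, the highest of its group for Nfkbia, as its sole DMSO library. The direction was the same in each of these fits. The summed level of neutrophil markers given above was lower with SGC0946 in each condition. The Nfkbia difference between SGC0946 and DMSO was -0.02 ± 0.07 after LPS and -0.01 ± 0.08 with GW3965. Whether these markers had a part in the Nfkbia result was not tested.

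The other 9 genes were not called in unstimulated cells. Nfkbib, at 19.2 to 20.4 CPM in SGC0946 against 20.5 to 22.5 CPM in DMSO, also did not overlap (-0.13 ± 0.10, edgeR adjusted p = 0.493), and groups lay apart in either direction for 16.1% of all genes. Rela differed by -0.01 ± 0.06, with a 95% interval of -0.13 to 0.11. Nfkbiz, at 10.2 to 10.8 CPM in SGC0946 against 8.98 to 10.3 CPM in DMSO, had the highest estimate, 0.16 ± 0.09. The intervals of all 10 genes lay between -0.40 and 0.35, and their median was -0.08 against 0.00 over all genes. Within mice, besides Nfkbia, Nfkb1, Nfkb2, Nfkbib, Nfkbie and Tnfaip3 were lower with SGC0946 in 4 of 4 mice and Nfkbiz was higher in 4 of 4, with differences of at most 0.22 in size and no call. For Nfkbib this follows from groups that lay apart. The share of all genes with the same sign in 4 of 4 mice was not counted, so these signs have no background.

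After LPS none of the 10 genes was called between SGC0946+LPS and DMSO+LPS, where 7.13% of all genes were. For 1 of the 10, Nfkb1, the unadjusted p was under 0.05. Nfkb1 was at 873 to 904 CPM in SGC0946+LPS against 948 to 1005 CPM in DMSO+LPS, without overlap (-0.13 ± 0.05, edgeR adjusted p = 0.11), and DESeq2 called it (-0.13, adjusted p = 0.0197). It was lower in 3 of 3 mice, which follows from groups that do not overlap. Nfkbib, at 138 to 152 CPM in SGC0946+LPS against 160.1 to 168 CPM in DMSO+LPS, did not overlap either (-0.16 ± 0.10, edgeR adjusted p = 0.381), and groups lay apart in either direction for 23.6% of all genes. Estimates for the 10 genes ran from -0.16 to 0.13, with intervals between -0.36 and 0.32. SGC0946+LPS replicate 2 was the highest of its group for 8 of the 10 genes, where 36.2% of all genes were highest in it.

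With GW3965 none of the 10 genes was called between SGC0946+GW3965 and DMSO+GW3965 by edgeR or DESeq2 and none had an unadjusted p under 0.05, where 3.64% of all genes were called. The groups overlapped for every member, and lay apart in either direction for 20.3% of all genes. Estimates ran from -0.07 for Nfkbie to 0.19 for Nfkbiz and all 10 intervals, which lay between -0.40 and 0.44, included 0. Nfkbia was at 32.5, 36.2 and 31.7 CPM in SGC0946+GW3965 against 35.6, 31.7 and 33.9 CPM in DMSO+GW3965 (-0.01 ± 0.08). Its lower level with SGC0946 in unstimulated cells was thus not seen in this condition, and whether the effect of SGC0946 differed between the conditions was tested as the difference of the GW3965 responses, given below.

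**Figure D4:**
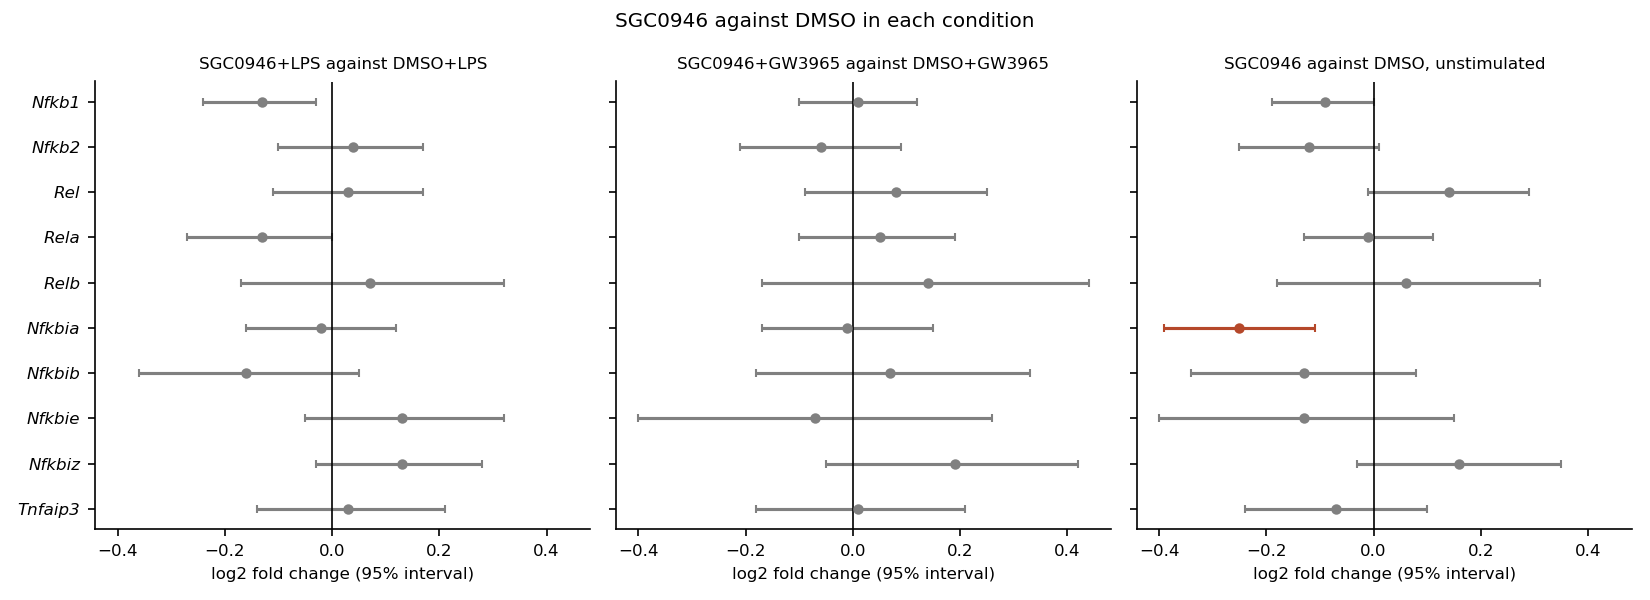
Log2 fold change of SGC0946 against DMSO for each gene after LPS (left), with GW3965 (middle) and unstimulated (right). Points are edgeR estimates and bars are 95% intervals, red where the gene was called. Nfkbia in unstimulated cells, at -0.25, is the one red point, and all estimates lie between -0.25 and 0.19.

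GW3965 gave 1 call among the 10 genes in the SGC0946 arm and 2 in the DMSO arm, and the unadjusted p was under 0.05 for 2 and 7 of them. The share of all genes at that unadjusted p was not counted, so the counts 2 and 7 have no background. The median log2 fold change of the 10 genes was -0.07 in the SGC0946 arm, against 0.00 over all genes, and -0.19 in the DMSO arm, against -0.01 over all genes. In the SGC0946 arm Tnfaip3 was higher and was the one gene called, where 2.42% of all genes were called in either direction and 1.32% higher. In the DMSO arm Nfkb1 and Nfkbia were lower and called, where 2.55% were called in either direction and 1.2% lower. These fits did not pair libraries by mouse. With mouse as a block the 2 calls in the DMSO arm were Nfkb1, lower, and Tnfaip3, higher. The 2 SGC0946 groups and the 2 DMSO groups are separate libraries, but the GW3965 and LPS responses of an arm share its unstimulated libraries. The unstimulated libraries also enter SGC0946 against DMSO and both differences of responses. The Nfkbia results in these comparisons thus share the DMSO libraries and are not separate findings.

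The ubiquitin editor Tnfaip3 was at 39.6, 43.6 and 45.8 CPM in SGC0946+GW3965 against 29.5, 30, 35.5 and 34.8 CPM in SGC0946. In the DMSO arm it was at 37.6, 42.7 and 47.6 CPM in DMSO+GW3965 against 31.7, 30.8, 36.9 and 36.8 CPM in DMSO. In both arms every library with GW3965 lay above every unstimulated one, so the differences within mice had to be above 0. Within mice 1 to 3 the difference was 0.42, 0.53 and 0.37 with SGC0946 and 0.24, 0.47 and 0.37 with DMSO. Groups lay apart in this direction for 5.64% of all genes in the SGC0946 arm and 10.2% in the DMSO arm. The log2 fold change was 0.40 ± 0.09 (edgeR adjusted p = 0.0152) with SGC0946 and 0.32 ± 0.09 (edgeR adjusted p = 0.0548, not called) with DMSO. With mouse as a block the DMSO arm passed (0.36, edgeR adjusted p = 0.00429). The call in the SGC0946 arm was lost without SGC0946 replicate 2 (adjusted p = 0.0589), without SGC0946+GW3965 replicate 3 (0.0857), without mice 2 and 4 (0.127) and in a fit of the 2 groups alone (0.107), and the DMSO arm passed without DMSO replicate 4 (0.0413) or without DMSO+GW3965 replicate 1 (0.0285), all by edgeR.

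In the other direction groups lay apart for 5.22% of all genes in the SGC0946 arm, where 3 of the 10 did (Nfkb1, Nfkb2 and Nfkbiz), and for 9.56% in the DMSO arm, where 4 did (Nfkb1, Nfkb2, Relb and Nfkbia). Nfkb1 was at 93.2, 94.3 and 97.2 CPM in DMSO+GW3965, below all 4 DMSO libraries (106 to 113 CPM), a change of -0.20 ± 0.05 (edgeR adjusted p = 0.0249). In the SGC0946 arm it was at 96.6, 95 and 95.2 CPM in SGC0946+GW3965, just below the lowest of the SGC0946 libraries (96.8 to 106 CPM), a difference of -0.10 ± 0.05 that did not pass (edgeR adjusted p = 0.362). Nfkbia was at 31.7 to 35.6 CPM in DMSO+GW3965 against 39.2 to 42.8 CPM in DMSO, a change of -0.27 ± 0.07 (edgeR adjusted p = 0.0458). In the SGC0946 arm it overlapped, at 31.7 to 36.2 CPM in SGC0946+GW3965 against 31.5 to 36.9 CPM in SGC0946 (-0.04 ± 0.07). The Nfkbia call in the DMSO arm was lost with mouse as a block (-0.24, edgeR adjusted p = 0.0603) and without any 1 of the 7 libraries (adjusted p 0.0591 to 0.223), and the Nfkb1 call without DMSO replicate 1 or 2 or any 1 of the DMSO+GW3965 libraries (0.0624 to 0.113) and without mice 2 and 4 (0.246).

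Among the members that were not called, Nfkb2, Relb and Nfkbiz were lower in 3 of 3 mice in both arms. The share of all genes with the same sign in 3 of 3 mice was not counted. Relb, at 17, 24.4 and 17.9 CPM in SGC0946+GW3965 against 22.2 to 26.7 CPM in SGC0946, had the lowest estimate in that arm, -0.29 ± 0.13 (edgeR adjusted p = 0.319), and likewise in the DMSO arm, at 16.8 to 19 CPM in DMSO+GW3965 against 22.1 to 25.6 CPM in DMSO (-0.37 ± 0.13, edgeR adjusted p = 0.142). In a fit of the 2 DMSO groups alone Relb passed (edgeR adjusted p = 0.0159). Rel differed by 0.07 ± 0.08 in the SGC0946 arm, with mice 1 and 2 higher and mouse 3 lower, and by 0.13 ± 0.08 in the DMSO arm, with 3 of 3 mice higher. The difference between the GW3965 responses of the arms was called for none of the 10 genes and for 0 of all genes tested (0%), also by DESeq2 for the 10 genes, with 1 of the 10 at an unadjusted p under 0.05. That gene was Nfkbia, with 0.24 ± 0.10 (95% interval 0.02 to 0.45, edgeR adjusted p = 1).

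**Figure D5:**
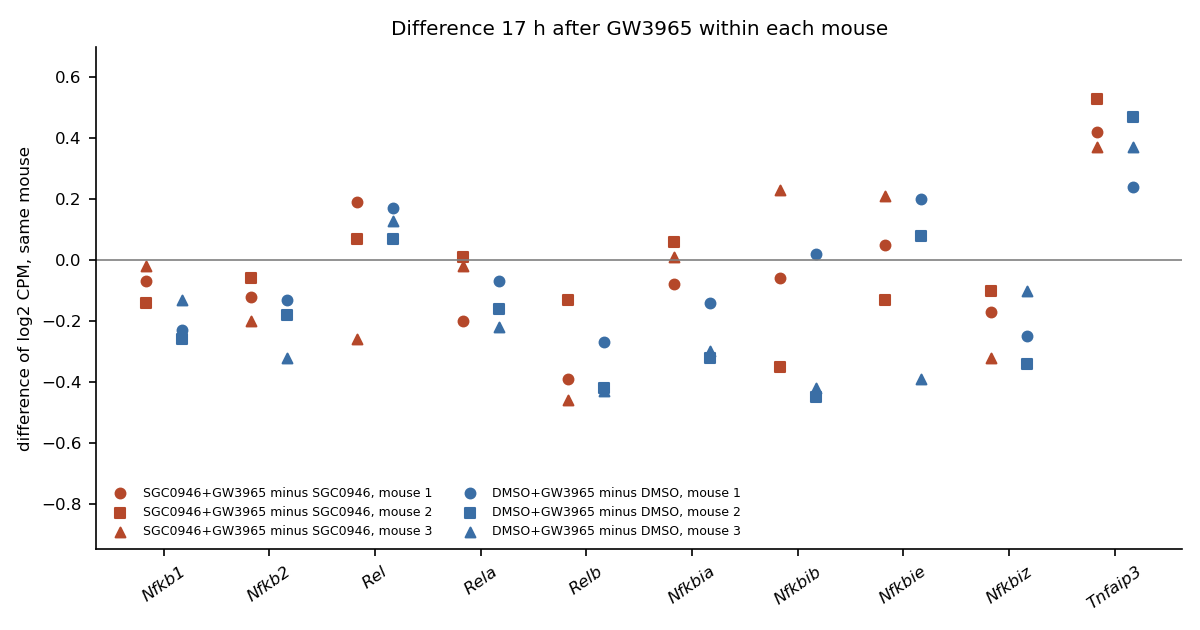
Difference of log2 CPM between cells with and without GW3965 from the same mouse, for mice 1 to 3, red for SGC0946+GW3965 minus SGC0946 and blue for DMSO+GW3965 minus DMSO. Tnfaip3 lies above 0 in all 6 pairs, from 0.24 to 0.53, and Nfkb1, Nfkb2, Relb and Nfkbiz lie below 0 in all 6. Where 2 groups lay apart, the sign in every mouse follows from that. The share of all genes with the same sign in all 6 pairs was not counted.

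Other genes of the pathway were taken from 4 lists set by name, with earlier results of these data known. Of all genes tested, 38.8% were called lower after LPS in the SGC0946 arm and 38.7% in the DMSO arm. Bcl3 and Nfkbid, the remaining IkB proteins, both rose with LPS in both arms. Bcl3 was at 148 ± 6.64 CPM in SGC0946+LPS against 25.3 ± 5.63 CPM in SGC0946 (2.54 ± 0.14) and at 126 ± 2.27 CPM in DMSO+LPS against 19.5 ± 1.88 CPM in DMSO (2.69 ± 0.14). Of 11 IKK and upstream kinase genes, 8 were higher and 3 lower in the SGC0946 arm, and 8 were higher and 2 lower in the DMSO arm. The non-canonical IKK kinase Ikbke was among the higher, with 2.40 ± 0.06 in the SGC0946 arm and 2.53 ± 0.06 in the DMSO arm, and Map3k14, the kinase NIK of the non-canonical branch, was among the lower, with -1.46 ± 0.17 in the SGC0946 arm and -0.88 ± 0.16 in the DMSO arm. The median change of this list was 0.69 and 0.78, below that of the 10 genes and above that of all genes. Of 17 adaptors and ubiquitin ligases, 12 were higher in both arms and 4 and 3 were lower. Traf1, at 5.65 ± 0.10 in the SGC0946 arm and 6.11 ± 0.10 in the DMSO arm, and Irak2, at 3.26 ± 0.07 and 3.33 ± 0.07, led, while Irak4, the kinase proximal to MyD88, fell, with -0.79 ± 0.08 and -0.81 ± 0.08. Of 15 other negative regulators, 10 and 11 were higher and 2 were lower in each arm. Tnip3 rose by 5.81 ± 0.13 in the SGC0946 arm and 5.55 in the DMSO arm, and N4bp1 by 3.08 ± 0.07 and 3.05 ± 0.07. Pdlim2, a ligase for nuclear p65, fell, with -1.06 ± 0.11 and -1.16 ± 0.11.

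Between SGC0946 and DMSO none of these genes was called in unstimulated cells or with GW3965, where 8.72% and 3.64% of all genes were. After LPS 2 were called, beside 7.13% of all genes: the negative regulators Tollip and Irak3, both inhibitors of IRAK signalling, were lower with SGC0946. Irak3 was at 43.6 ± 3.17 CPM in SGC0946+LPS against 55.4 ± 3.64 CPM in DMSO+LPS (-0.34 ± 0.08, edgeR adjusted p = 0.0171), and Tollip at 149 ± 4.44 CPM in SGC0946+LPS against 171 ± 4.96 CPM in DMSO+LPS (-0.20 ± 0.05, edgeR adjusted p = 0.0153). With GW3965, Ikbke was lower in the SGC0946 arm, at 119 ± 8.73 CPM in SGC0946+GW3965 against 145 ± 9.37 CPM in SGC0946 (edgeR adjusted p = 0.00943), where Rnf11 was higher (0.21 ± 0.05), and N4bp1 was lower in the DMSO arm, at 53 ± 4.56 CPM in DMSO+GW3965 against 65.2 ± 4.86 CPM in DMSO (edgeR adjusted p = 0.0327). These are 2 calls in the SGC0946 arm, beside 2.42% of all genes, and 1 in the DMSO arm, beside 2.55%, too few to set the lists apart from all genes.

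For each member the most similar gene was taken as the one whose log2 CPM, after its own mean was subtracted, had the smallest root mean square difference from the member over the 20 libraries. It was Rhbdf2 for Nfkb1 (0.09), Stat5a for Nfkb2 (0.09), Katna1 for Rel (0.13), Ppp2r5a for Rela (0.08) and Pfkfb3 for Relb (0.14). It was Icam1 for Nfkbia (0.17), Usb1 for Nfkbib (0.13), Ripk2 for Nfkbie (0.17), Heatr9 for Nfkbiz (0.29) and Cxcl3 for Tnfaip3 (0.26). Among the members, Rel and Nfkbib were each nearest to Nfkb1, at 0.18, and Nfkbie and Tnfaip3 differed by 0.24. Nfkbiz and Rela stood farthest from any other member, at 0.53 (from Tnfaip3) and 0.42 (from Relb). All values come from the same libraries and the same scaling, and they are a description with no test.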

How the data were processed

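RNA of 20 cultures was sequenced from 1 end with reads of 50 bp, 700 ng per library, per the labels' protocols. The submitters' processing notes name the build mm10 and the tools STAR 2.5.2b and SAMtools 1.3.1. How reads were counted, and on which strand, is not given in the sources used here. Per-transcript values came in 2 tables. The authors deposited a table of counts per RefSeq transcript and a table of RPKM values, which equal the counts over length and library total within a relative deviation of 3.52e-05 for the 780 transcripts checked, those with at least 2000 counts in every library. Metadata deposited with them give each library's mouse.

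RefSeq identifiers were joined to symbols (GRCm38.p6 gene table, 35440 of 35745 transcripts named; the 305 unnamed ones held 1.17% of counts). Each symbol kept its transcript of highest total count, because isoforms share reads: those of Nfkb2, Nfkbiz, Tnfaip3, Relb, Nfkbie and Nfkbib have near-equal totals and cannot be told apart. Counts were tested with edgeR 4.0.16 (quasi-likelihood F test, R 4.3.3) with the 6 group means over 20 libraries, TMM factors and a minimum of 10 counts in filterByExpr. A call is a Benjamini-Hochberg adjusted p under 0.05 over 12013 genes. Standard errors are the log2 fold change over the square root of F. CPM are TMM-scaled counts, and log2 CPM use a prior count of 2. DESeq2 1.42.0 was an alternative. The edgeR test of SGC0946 against DMSO in unstimulated cells was also run on simulated counts, drawn independently for each library. That run does not cover the pairing of libraries by mouse.

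The mouse numbers pair libraries: deviations from group means correlated at 0.185 to 0.777 for the same mouse (46 pairs) and at -0.57 to 0.45 for different mice (120 pairs). The mouse block is an alternative fit. The members, the lists of pathway genes and markers, and the rule for naming list genes (up to 2 per list and direction, by adjusted p among called genes with groups that do not overlap) were chosen with earlier results of these data known.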

Additional observations from a re-analysis of the deposited data

How the results depend on the processing

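With all libraries in, the alternatives were library totals, RLE size factors, DESeq2, no filter on low counts, a fit of the compared groups alone, the mouse as a replicate block, and the transcript with the highest mean RPKM; others left out libraries. The LPS response of all 10 genes was called in both arms under every one of them, and the differences of the LPS and GW3965 responses between arms were called for 0 members under every one. Keeping only libraries whose titles lack the word reanalyzed left DMSO replicate 4 as the sole DMSO library. No called value changed sign. Signs changed in 68 cases between values past no threshold, at sizes of at most 0.16.

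The number of members called moved in 4 comparisons. For SGC0946 against DMSO it was 1, and 0 without mice 2 and 4, and leaving out single libraries gave 0 to 1. For SGC0946+LPS against DMSO+LPS it was 0, and 1 with DESeq2. For DMSO+GW3965 against DMSO it was 2. It was 1 without a filter, where Tnfaip3 passed (adjusted p = 0.0396) and Nfkb1 (0.0714) and Nfkbia (0.0518) did not. It was 4 in the compared groups alone and 0 without mice 2 and 4, and 0 to 2 without single libraries. With the replicate block it was still 2, with Tnfaip3 in place of Nfkbia. RLE factors moved Nfkbia to 0.0529 and Tnfaip3 to 0.0484, and DESeq2 moved Tnfaip3 to 0.0124. For SGC0946+GW3965 against SGC0946 it was 1, and 0 in the compared groups alone or without mice 2 and 4, and 0 to 1 without single libraries. The block changed no other call of a member. The causes were not tested; alternatives with fewer libraries have less to estimate the spread from.

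The number of all genes called also moved by over 1.5 times. For SGC0946 against DMSO it was 1048 at first and 235 without mice 2 and 4 (578 to 1099 without single libraries). For SGC0946+LPS against DMSO+LPS it was 856, with 529 without mice 2 and 4 and 524 without the reanalyzed libraries (432 to 796). For SGC0946+GW3965 against DMSO+GW3965 it was 437, with 703 under the block, 250 without mice 2 and 4 and 164 in the compared groups (232 to 454). For DMSO+GW3965 against DMSO it was 306, with 531 under the block, 888 in the compared groups and 476 with DESeq2 (122 to 343). For SGC0946+GW3965 against SGC0946 it was 291, with 178 without mice 2 and 4, 147 without the reanalyzed libraries and 88 in the compared groups (134 to 485). For the difference of LPS responses it was 1, with 11 without a filter, 6 under the block and 34 with DESeq2 (1 to 11). Library totals moved the share of called genes that were higher to 62.6% for SGC0946 against DMSO (52.1% with TMM), to 39.2% for GW3965 in the SGC0946 arm (54.3%) and to 36.1% in the DMSO arm (52.9%). Comparisons with DMSO+GW3965 could not be run on libraries without the word reanalyzed, since all of that group carry it.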
